A study of Mus musculus with 12 samples.

Results

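The genes described here are 10 genes for plasma proteins that the liver secretes, read in kidneys of mouse embryos. They were chosen by name: *Afp*, *Alb*, *Apoa1*, *Apoa2*, *Ttr*, *Ahsg*, *Fga*, *Fgb*, *Fgg* and *Ambp*. All 10 had a probe on the array, 1 each among 41174 probes, and they are 10 of the 17305 genes whose symbol could be matched. The kidneys were taken at embryonic day 14.5 from BdkrB2 null and BdkrB2 WT embryos on a C57BL/6 genetic background. Both genotypes came from crosses of BdkrB2 heterozygous parents, and the mothers of both ate food with 5% sodium, so no kidney came from an unsalted pregnancy. BdkrB2 is the bradykinin B2 receptor. Null and WT RNA were hybridised together on 12 two-colour arrays: 3 replicates with null in Cy5 (null/WT) and 3 with WT in Cy5 (WT/null), on 2 arrays each. The labels do not say whether a sample held 1 embryo or pooled ones, nor whether the orientations that share a replicate number came from the same RNA. The p-values of null over WT thus measure the spread between these 6 hybridised replicates only. Those of differences between replicate numbers measure only the spread within the pairs that share a number.

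Hepatocytes secrete most of the protein of blood plasma, and fetal hepatocytes and the yolk sac make alpha-fetoprotein (*Afp*) before albumin (*Alb*) takes its place as the main carrier protein. *Apoa1* and *Apoa2* encode the main proteins of high-density lipoprotein. *Ttr* and *Ambp* encode small carriers, transthyretin for thyroid hormone and retinol-binding protein, and alpha-1-microglobulin, which is cut from the same precursor as the protease inhibitor bikunin. *Ahsg* encodes fetuin-A, an inhibitor of mineral deposition, and *Fga*, *Fgb* and *Fgg* encode the chains of fibrinogen. In the kidney, albumin and the smaller of these proteins are known mainly as cargo: they are filtered and taken up again by the proximal tubule through megalin, so a protein can be present where its transcript is not.

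The probe of the targeted gene *Bdkrb2* was too dim to check the genotype labels, at 0 of 12 null and 1 of 12 WT channels well above background. Each slide held the 4 arrays of 1 replicate number, so the numbers 1, 2 and 3 also name the slides. The scanner software called 41.2% to 59.0% of Cy3 spots and 51.1% to 60.0% of Cy5 spots well above background, depending on the array. An array stood apart, the first of replicate 3 in the WT/null orientation, with the lowest Cy3 share and an SD of log2 ratios of 0.381. The SD was 0.255 to 0.256 on the other arrays of slide 3 and 0.164 to 0.201 on slides 1 and 2. Every array of slide 3 thus had wider ratios than those of the other slides, and the part of this in the slide 3 results was not tested. Without the array that stood apart, the average log2 null over WT of *Afp*, *Fgb* and *Ambp* stayed at 0.48, 0.12 and 0.06. Those of *Alb* and *Ahsg* changed and are given both ways below, as are counts that were also made without that array. *Xist* was well above background in all 4 null channels of every slide, but in 4 WT channels on slide 1 and 0 on slides 2 and 3, while *Ddx3y* was so in 0 null channels on any slide and in 0, 4 and 4 WT channels on slides 1, 2 and 3. The genotypes thus differed in these transcripts of sex on slides 2 and 3, and their part in the results was not tested. Of 12 markers of the embryonic kidney, 11 were detected well enough to be tested, among them *Six2*, *Wt1* and *Pax2*, with a median log2 null over WT of 0 (5 averages above 0 and 6 below, but 11 above under median centring of the arrays in place of loess, and 7 above and 4 below without the array that stood apart). *Ret* was the other one, at 0 null and 1 WT channel.

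The upstream sequences of 5 members are shown because these genes lie close to each other in the genome: *Alb* and *Afp*, both detected, are neighbours on chromosome 5, and the fibrinogen genes, of which the *Fgb* probe was detected, lie close together on chromosome 3. Each line gives the 250 bases before the start of transcription, 5′ to 3′ on the gene's strand, from RefSeq on build GRCm38.p6. Capitals mark the letters GTTAAT on either strand (ATTAAC when read from the other one), a half-site of the liver and kidney factor HNF1. The windows are chr5:90490464-90490713 (plus strand) for *Afp*, chr5:90460620-90460869 (plus) for *Alb*, chr3:83049864-83050113 (minus) for *Fgb*, chr3:83025903-83026152 (plus) for *Fga* and chr3:83007474-83007723 (plus) for *Fgg*.
Afp: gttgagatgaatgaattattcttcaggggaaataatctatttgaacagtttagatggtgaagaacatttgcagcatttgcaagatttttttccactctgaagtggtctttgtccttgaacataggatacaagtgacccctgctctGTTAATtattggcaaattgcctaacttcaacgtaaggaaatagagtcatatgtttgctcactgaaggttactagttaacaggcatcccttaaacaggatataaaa
Alb: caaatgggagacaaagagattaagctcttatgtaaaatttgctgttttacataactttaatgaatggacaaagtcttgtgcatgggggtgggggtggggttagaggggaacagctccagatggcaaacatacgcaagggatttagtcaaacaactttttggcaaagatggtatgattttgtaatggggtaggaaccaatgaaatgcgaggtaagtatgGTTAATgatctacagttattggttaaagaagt
Fgb: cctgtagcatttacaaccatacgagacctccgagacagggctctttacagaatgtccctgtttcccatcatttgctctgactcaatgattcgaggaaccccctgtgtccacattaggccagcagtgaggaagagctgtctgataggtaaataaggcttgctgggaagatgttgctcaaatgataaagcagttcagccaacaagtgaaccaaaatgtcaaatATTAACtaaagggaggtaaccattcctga
Fga: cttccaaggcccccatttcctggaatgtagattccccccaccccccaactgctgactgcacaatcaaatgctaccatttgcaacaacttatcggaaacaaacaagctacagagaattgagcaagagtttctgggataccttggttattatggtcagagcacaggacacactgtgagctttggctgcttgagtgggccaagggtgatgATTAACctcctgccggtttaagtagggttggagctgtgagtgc
Fgg: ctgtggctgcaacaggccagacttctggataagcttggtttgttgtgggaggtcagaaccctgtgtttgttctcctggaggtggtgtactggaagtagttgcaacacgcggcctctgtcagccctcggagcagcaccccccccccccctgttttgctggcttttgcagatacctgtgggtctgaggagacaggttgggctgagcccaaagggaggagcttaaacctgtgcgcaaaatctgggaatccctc
The match began 32 bases before the start in *Alb*, 29 in *Fgb*, 43 in *Fga* and farther upstream in *Afp*, and these letters are not in the window of *Fgg*. Of the 9 members whose windows were read, these 4 held a match, as did 6.43% of 32851 windows of the same length over all genes. *Ttr* was left out of this reading, so whether its window holds a match was not tested. Matches were found both in members whose transcripts were detected and in 1, *Fga*, that was not. A match of letters is a description of the sequence and says nothing about binding.

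The liver genes split into a detected and an undetected group of equal size. Among all probes of the array, 55.8% were detected in null or WT on at least 6 of 12 arrays, the rule that the detected group met. *Afp*, *Fgb* and *Ambp* gave a clear signal, well above background, in all 12 null and all 12 WT channels. *Ahsg* was so in 11 null and 12 WT channels and *Alb* in 9 null and 12 WT channels. The 3 null channels in which *Alb* was not well above background were 2 on slide 1 and 1 on slide 3, and the 1 of *Ahsg* was on slide 3, on the array that stood apart. All of these were on WT/null arrays, where null was in Cy3. On null/WT arrays both genes were well above background in every channel. The other 5 members were at or near background in both genotypes: *Apoa1*, *Apoa2*, *Ttr* and *Fga* were well above background in 0 of 24 channels, and *Fgg* in 1 null and 1 WT channel.

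**Figure D1:**
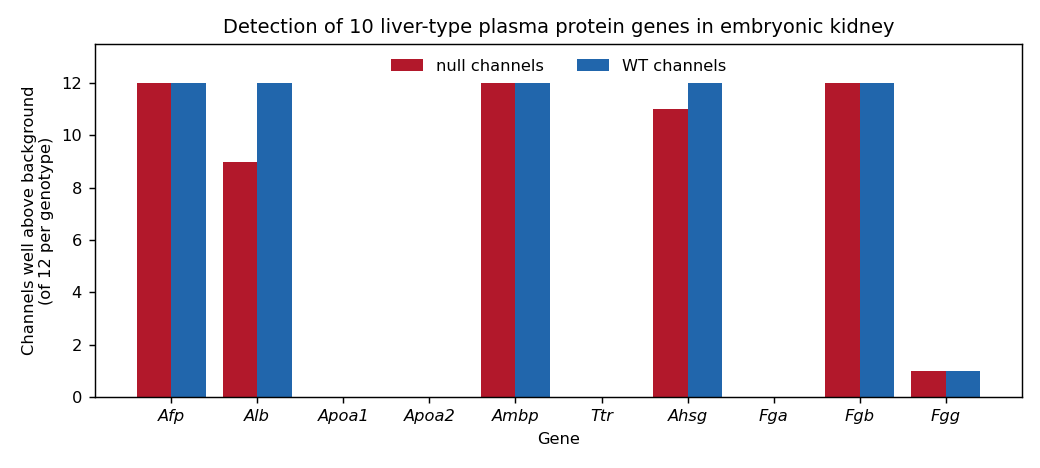
Number of array channels (of 12 per genotype) in which each of the 10 genes was well above background, with null channels in red and WT channels in blue. The 5 detected genes stand at 9 to 12 channels, *Fgg* at 1 per genotype and 4 genes at 0.

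The lack of signal was repeated over many spots for *Apoa1*, which is printed 10 times on each array. Of 111 usable spot readings per genotype, 0 were well above background, and the net brightness of the spot over its local background had a median of 10 in null and 9 in WT channels. For *Ttr* the median net brightness was 8 in null and 4.75 in WT channels, and for *Fga* it was 11.8 and 9.25. Among spots well above background, the dimmest hundredth lay below a net brightness of 12.5 to 70.5 in Cy3 and 16.5 to 28.5 in Cy5, depending on the array. *Afp* is printed 10 times as well, and 120 of 120 readings in each genotype were well above background, with a median net brightness of 3809.5 in null and 2364 in WT channels. By the scanner software's looser test, significance over background, *Apoa1* had 5 null and 2 WT channels, *Apoa2* 4 and 4, *Ttr* 0 and 2, *Fga* 5 and 4 and *Fgg* 6 and 6 of 12. No ratio is given for these 5 genes, since both genotypes lay at or near background. Probes differ in sensitivity, so a detected and an undetected probe do not show that the levels of these genes differed.

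*Afp* was far higher in null than in WT kidneys on slide 3 and not on the other slides. Its log2 null over WT was -0.10 in WT/null replicate 1 and -0.04 in null/WT replicate 1. On slide 2 it was 0.06 and 0.05 in the same order. On slide 3 it was 1.40 and 1.51, a 2.64-fold and a 2.84-fold difference. Both slide 3 replicates lie apart from the other 4, and both dye orientations gave the same picture. The duplicate arrays agreed closely, at 1.40 on both arrays of WT/null replicate 3 and at 1.51 on both of null/WT replicate 3, so the array that stood apart gave the same value as its duplicate.

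**Figure D2:**
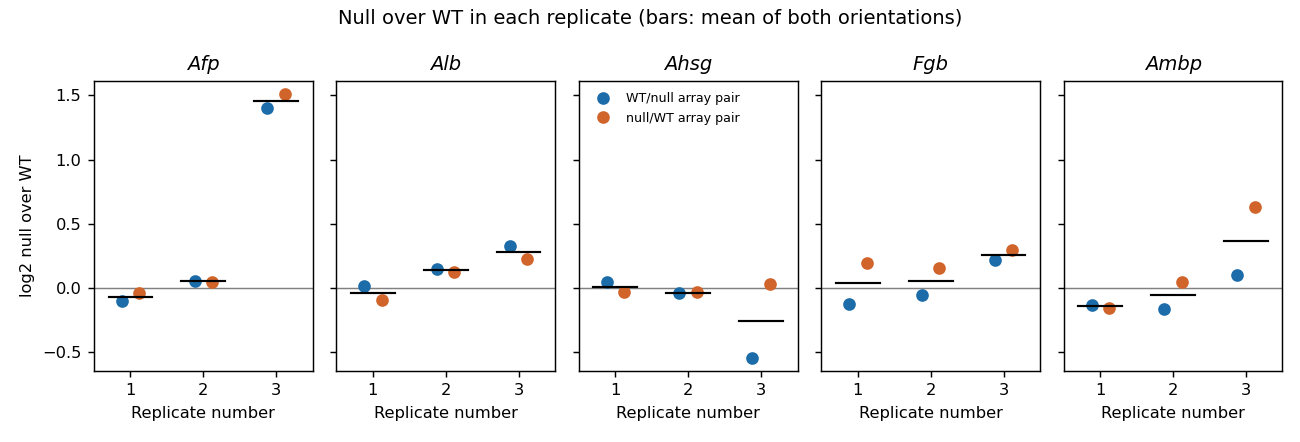
log2 null over WT of the 5 detected genes in each of the 6 replicates, by replicate number (slide) and dye orientation; each point is the mean of 2 arrays and each black bar the mean of both orientations. *Afp* stands at 1.40 and 1.51 on slide 3 and between -0.10 and 0.06 elsewhere, while *Ahsg* and *Ambp* have orientations that differ on slide 3.

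Whether null over WT differed between the slides was tested with limma's moderated F over the 3 replicate numbers, with dye in the fit. *Afp* passed (F adjusted p = 0.00227 over all 22977 tested probes), with slide means of -0.07, 0.05 and 1.45. In this comparison 1.48% of all tested probes passed, 46.3% of those with their highest mean on slide 3. Without the array that stood apart, 6.74% of all probes passed, and *Afp* was again the 1 member that did (F adjusted p = 0.000168). Of all 22977 tested probes, passed or not, 28 (0.122%) had a slide 3 mean at least as high as that of *Afp*. *Afp* was the 1 of the 5 tested members that passed. The adjusted F p was 0.187 for *Alb*, 0.199 for *Ambp*, 0.336 for *Fgb* and 0.569 for *Ahsg*, and 3 of the 5 had an unadjusted p under 0.05, against 18.9% of all probes.

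Over all slides together, *Afp* averaged 0.48 ± 0.25 (SE, n = 6 replicates in 3 pairs), and did not pass (limma adjusted p = 0.71). Without slide 3 its value was -0.01.

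The level of *Afp* in each genotype's own channel shows which samples were high. On a normalised log2 intensity scale, null kidneys stood at 10.57 and 10.55 on slide 1, at 12.57 and 12.59 on slide 2 and at 12.44 and 12.47 on slide 3, WT/null first. WT kidneys stood at 10.66 and 10.59 on slide 1, at 12.51 and 12.54 on slide 2 and at 11.04 and 10.97 on slide 3. Both genotypes were thus high on slide 2 and low on slide 1, and on slide 3 the null level was near that of slide 2 and the WT level nearer that of slide 1. Set against slide 1, the slide 2 level was 4.06-fold in null and 3.73-fold in WT kidneys, so kidneys of the same genotype differed more between slides than the genotypes did on any slide. The slide 3 level was 3.73-fold in null and 1.30-fold in WT. With the scanner software's processed signals, an alternative added after the data were seen, these 4 values were 4.73, 4.26, 2.97 and 0.993, so the small WT difference between slides 3 and 1 depends on the scaling. Levels on different slides were hybridised apart and are described without a test. In bulk RNA, more cells of a type and more RNA per cell cannot be told apart.

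**Figure D3:**
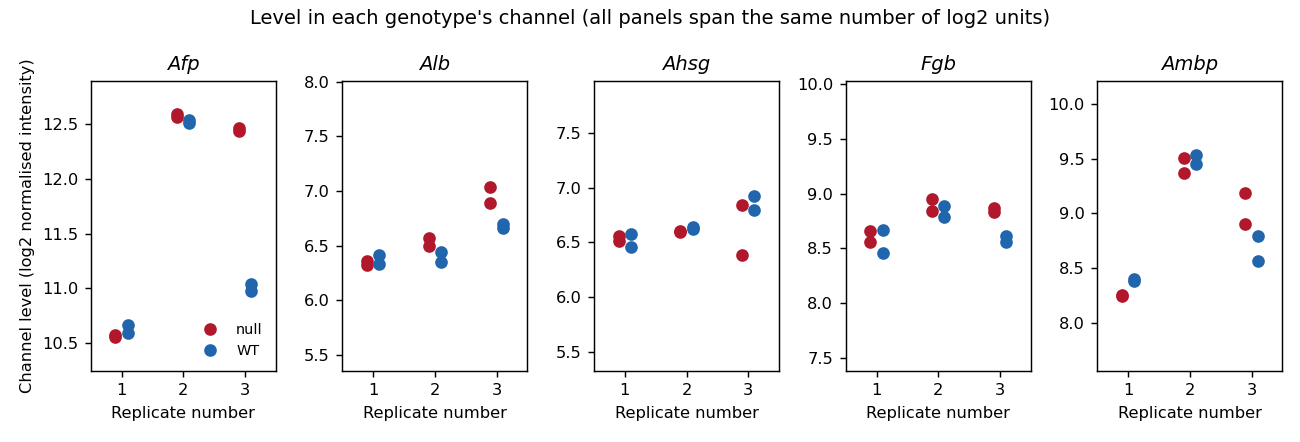
Normalised log2 channel level of the 5 detected genes in null (red) and WT (blue) kidneys, by replicate number (slide), 2 replicates per genotype and slide; every panel spans the same number of log2 units around its own centre. *Afp* and *Ambp* are highest on slide 2 in both genotypes, and on slide 3 the null points of *Afp* lie at 12.44 and 12.47 against 11.04 and 10.97 in WT.

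*Ambp*, the gene of alpha-1-microglobulin and bikunin, followed a like course over the slides at a smaller size. Its mean log2 level on slides 1, 2 and 3 was 8.25, 9.44 and 9.04 in null and 8.39, 9.49 and 8.68 in WT kidneys. Its log2 null over WT was -0.13 and -0.15 on slide 1, -0.16 and 0.05 on slide 2 and 0.10 and 0.63 on slide 3, WT/null first. The orientations of slide 3 did not agree, although duplicate arrays did: the WT/null arrays gave 0.08 and 0.12, the null/WT arrays 0.64 and 0.61. Over all slides *Ambp* stood at 0.06 ± 0.09 (SE, n = 6, limma adjusted p = 0.845), and at -0.10 without slide 3.

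*Alb*, the albumin gene and neighbour of *Afp*, differed less between genotypes on slide 3 than *Afp* did, a contrast between genes that was not tested. Its log2 null over WT was 0.02 and -0.09 on slide 1, 0.15 and 0.13 on slide 2 and 0.33 and 0.23 on slide 3, WT/null first. The mean log2 level of *Alb* on slides 1, 2 and 3 was 6.34, 6.53 and 6.96 in null and 6.37, 6.39 and 6.68 in WT kidneys, so that slide 2 did not stand above the others as it did for *Afp*. Over all slides *Alb* averaged 0.13 ± 0.06 (SE, n = 6, limma adjusted p = 0.71), with 5 of 6 replicates above 0. Part of the slide 3 value came from the array that stood apart, which gave 0.58 against 0.08 on its duplicate. Without that array the average over slides was 0.09, and with the scanner software's ratios or the authors' value table it was 0.35 (limma adjusted p = 0.595 and 0.6).

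*Fgb*, which encodes the beta chain of fibrinogen, had null over WT values that differed between the dye orientations on slides 1 and 2. In null/WT replicates 1, 2 and 3 the log2 value was 0.20, 0.16 and 0.30, and in WT/null replicates it was -0.12, -0.05 and 0.22. Slide 3 was the slide on which both orientations lay above 0.2. The level of *Fgb* ranged from 8.56 to 8.95 (median 8.84) in null and from 8.46 to 8.89 (median 8.64) in WT kidneys, and these ranges overlapped. Its average was 0.12 ± 0.05 (SE, n = 6, limma adjusted p = 0.71).

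*Ahsg*, the fetuin-A gene, was the 1 detected member whose average lay below 0, at -0.09 ± 0.07 (SE, n = 6, limma adjusted p = 0.735). That value rests on WT/null replicate 3, at -0.54, while the other 5 replicates lay between -0.04 and 0.05. Within that replicate the array that stood apart gave -0.93 and its duplicate -0.15. Without that array the average was -0.03. The level of *Ahsg* ranged from 6.38 to 6.84 (median 6.57) in null and from 6.46 to 6.92 (median 6.63) in WT kidneys, so the genotypes overlapped.

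In total, 0 of the 5 tested members passed in null over WT by limma, where 0.0392% of all tested probes passed (0.0218% higher and 0.0174% lower in null), and 0 had an unadjusted p under 0.05, against 7.01% of all probes. With the replicate number as a block, 0 passed by limma, against 0.0174% of all probes, and 0 had an unadjusted p under 0.05, against 3.30%. Of the 5 tested, 4 had an average above 0 and 0 had the same sign in all 6 replicates, where 1.50% of all probes were higher and 1.42% lower in all 6. The median of the 5 was 0.12 beside -0.0098 over all tested probes. By slide the median was -0.03, 0.05 and 0.28, beside 0.0066, -0.0054 and -0.026 over all tested probes. These 5 are the members that were bright enough to test, and the other 5 have no measured ratio.

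The wider class of liver-made plasma proteins was read through 68 further genes, of which 66 were on the array. Of these, 31 were bright enough to test and 21 were well above background in 0 of 24 channels by any probe, among them *Apoh*, *Apoa4*, the prothrombin gene *F2*, the serpin gene *Serpina3k* and the hepcidin gene *Hamp*. Over all probes of the array, 55.8% were bright enough to test, and 12647 of 17305 genes had at least 1 such probe. These shares are the background for the 31. The share of all genes at 0 channels was not counted, so the 21 cannot be called a trait of this class. In null over WT 0 of the 31 passed by limma, and 6 had an unadjusted p under 0.05, against 7.01% of all probes. That p, like the SEs and the counts of the later lists, treats the 6 replicates as independent. With the replicate number as a block, 3.30% of all probes had an unadjusted limma p under 0.05, and such counts are not given for the lists. The averages of the 31 were above 0 for 23 and below 0 for 8, with a median of 0.07. Under median centring the split was 28 and 3. The values with the smallest p above 0 were those of *Igfbp1*, which encodes a binding protein of insulin-like growth factors (0.22 ± 0.07), the protein S gene *Pros1* (0.13 ± 0.04), the apolipoprotein E gene *Apoe* (0.12 ± 0.04) and the haptoglobin gene *Hp* (0.14 ± 0.05), all SE over 6 replicates. Below 0 they were *Itih3*, the gene of a heavy chain that joins bikunin (-0.15 ± 0.05), the complement gene *C4b* (-0.08 ± 0.06), the antiplasmin gene *Serpinf2* (-0.11 ± 0.09) and *Itih2* (-0.06 ± 0.05). The limma F between slides was passed by 2 of the 31, against 1.48% of all probes, and by 11 against 6.74% without the array that stood apart. The 2 were *Spp2*, the gene of secreted phosphoprotein 24 (slide means -0.11, 0.14 and 1.53, F adjusted p = 0.00748), and the complement factor B gene *Cfb* (-0.19, 0.20 and 0.63, F adjusted p = 0.0335).

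Hepatocyte genes whose products stay in the cell were read to see whether the liver type was present as a whole. Of 17 such genes 16 were on the array, and *Hpd*, *Tdo2*, *Slc10a1*, *Foxa3* and *Cyp3a11* were well above background in 0 channels of either genotype. Here too no share over all genes was counted. Of the 8 tested, 0 passed in null over WT by limma, against 0.0392% of all probes. An unadjusted p under 0.05 was reached by 1, against 7.01% of all probes. The averages were above 0 for 3 and below 0 for 5, with a median of -0.02. That direction turned to a median of 0.05, with 5 above and 3 below, under median centring and with the scanner software's ratios, and to a median of 0, with 4 and 4, without the array that stood apart. The limma F between slides was passed by 2 of the 8, against 1.48% of all probes. Without the array that stood apart it was again 2, against 6.74%. Among them was *Ass1*, the argininosuccinate synthase gene, which the proximal tubule also expresses. Its means on slides 1, 2 and 3 were -0.18, 0.02 and 0.58 (limma F adjusted p = 0.0288). The summed intensity of the 8 genes ranged from 3000 to 9280 in null and from 3430 to 9270 in WT kidneys.

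Most proximal tubule genes had a course over slides like that of *Afp*. All 12 tested had averages above 0 (11 without background subtraction and with the scanner software's ratios). In null over WT 0 passed by limma and 3 had an unadjusted p under 0.05, against 0.0392% and 7.01% of all probes. The F between slides was passed by 6, each with its highest value on slide 3, where 1.48% of all probes passed. Without the array that stood apart 7 passed, against 6.74%. The median by slide was -0.04, 0.06 and 0.75. *Fbp1*, a gluconeogenic enzyme gene, stood at a mean log2 level of 7.47, 10.71 and 10.22 in null and 7.55, 10.13 and 7.98 in WT kidneys on slides 1, 2 and 3. The phosphate transporter gene *Slc34a1* stood at 7.61, 9.40 and 9.26 in null and 7.78, 9.44 and 7.97 in WT. As for *Afp*, both genotypes were high on slide 2 and low on slide 1, and on slide 3 only null was high. The summed intensity of the 12 genes was 15000 and 16000 in the null and 8740 and 8610 in the WT replicates of slide 3, within ranges of 6940 to 17500 and 7250 to 15800 over all slides. The part of these cells in the value of *Afp* was not tested.

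**Figure D4:**
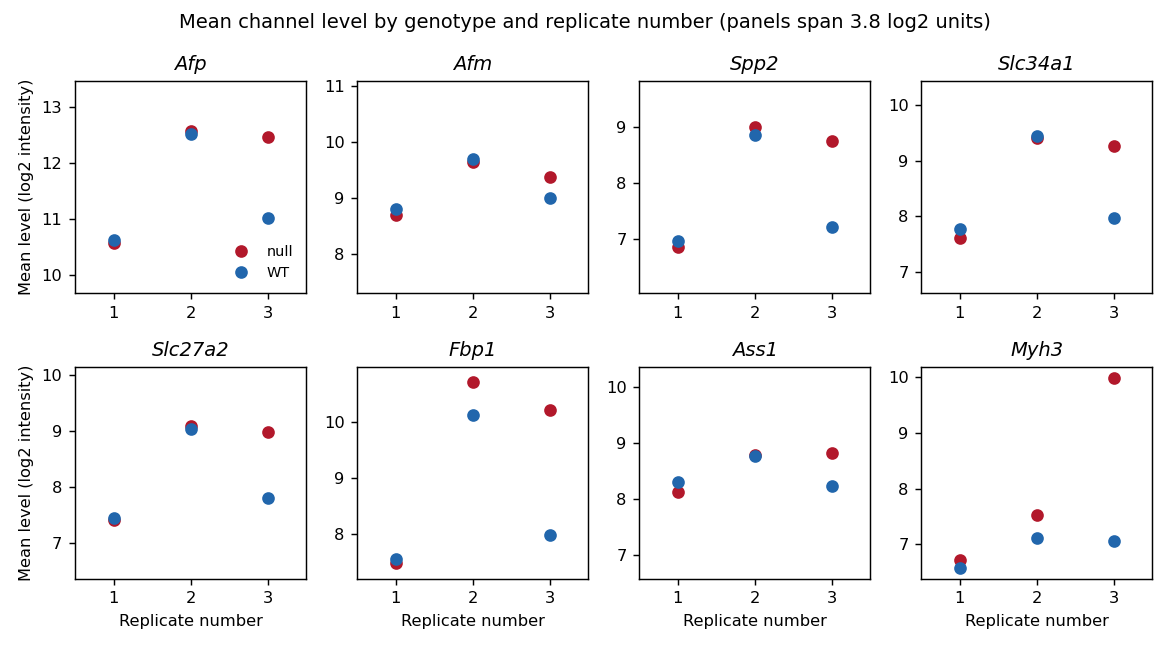
Mean normalised log2 channel level in null (red) and WT (blue) kidneys by replicate number (slide), 2 replicates per point, for *Afp*, 2 other plasma protein genes (*Afm*, *Spp2*), 4 enzyme or transporter genes (*Slc34a1*, *Slc27a2*, *Fbp1*, *Ass1*) and the muscle gene *Myh3*; all panels span the same number of log2 units. All 8 are higher on slide 2 than on slide 1 in both genotypes, and *Myh3* is highest in null on slide 3, at 9.99 against 7.07 in WT.

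How common that course was is a description chosen after the values of *Afp* were seen. It was counted as a level higher on slide 2 than on slide 1 in both genotypes, and on slide 3 higher in null than in WT and than in null on slide 1. It held for 4 of the 5 tested members (*Afp* included), 21 of the 31 other plasma protein genes and 11 of the 12 proximal tubule genes. It held for 28% of all 12647 tested genes, for 5 of the 8 skeletal muscle genes, for 3 of the 9 erythroid genes, for 2 of the 8 hepatocyte genes, for 0 of the 4 adrenal cortex genes and for 1 of the 11 embryonic kidney markers. *Ahsg* was the member for which it did not hold. The count set no minimum size for a difference. *Alb* met it with WT levels of 6.39 on slide 2 and 6.37 on slide 1. Unlike *Afp*, *Alb* was highest on slide 3 in both genotypes, at 6.96 in null and 6.68 in WT.

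Skeletal muscle genes were higher in null on slide 3 as well. All 8 had averages above 0 under each scaling run (0 passed by limma, 6 at an unadjusted p under 0.05, against 7.01% of all probes). Their medians by slide were 0.14, 0.42 and 1.54, and 5 passed the F between slides, against 1.48% of all probes, or 8 against 6.74% without the array that stood apart. Their summed intensity on slide 3 was 4520 and 5440 in null and 1640 and 1660 in WT kidneys, and over all slides it ranged from 1590 to 5440 in null and from 1590 to 1780 in WT. The mean log2 level of the embryonic myosin gene *Myh3* was 6.72, 7.53 and 9.99 in null and 6.58, 7.12 and 7.07 in WT kidneys on slides 1, 2 and 3, so null on slide 3 stood above every other value. Erythroid genes, which also mark the blood-forming cells of the fetal liver, had medians of -0.21, -0.01 and 0.11 by slide. Of 9 tested, 1 passed the F, against 1.48% of all probes, or 5 against 6.74% without the array that stood apart. Their averages were above 0 for 5 and below for 4, or for 7 and 2 under median centring. The embryonic globin gene *Hbb-bh1* had the largest average of that list, at -0.34 ± 0.09 (SE, n = 6 replicates). Of 7 adrenal cortex genes 4 were tested and 0 passed the limma F, against 1.48% of all probes. An unadjusted F p under 0.05 was reached by 1, against 18.9%. Without the array that stood apart 1 passed, against 6.74%. The largest average was that of *Akr1b7*, at 0.31 ± 0.07. The part of muscle, blood or adrenal cells in the values of the plasma protein genes was not tested.

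**Figure D5:**
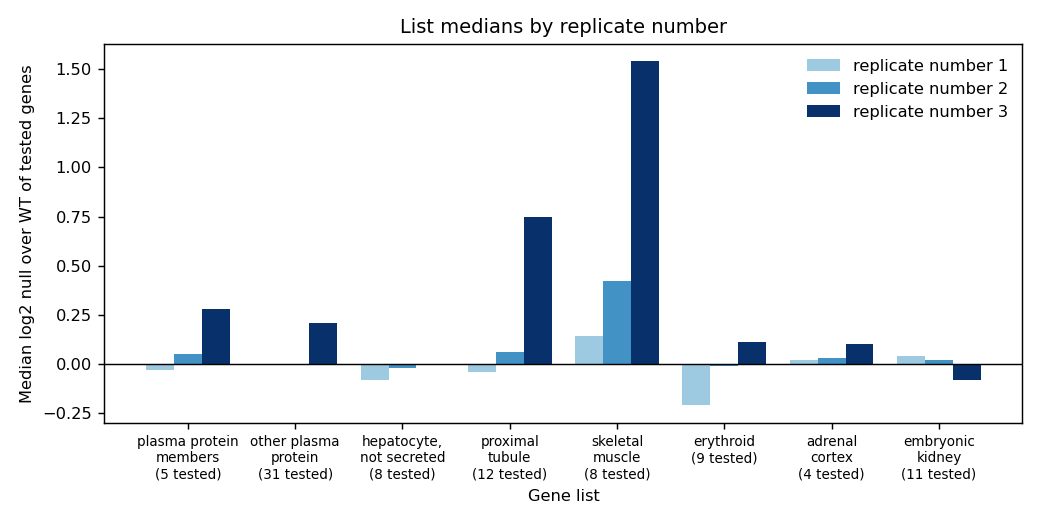
Median log2 null over WT of the tested genes of 8 gene lists, with 1 bar per replicate number (slide). The slide 3 bar is the highest in every list but the embryonic kidney markers, from 0 for hepatocyte genes, 0.21 for the other plasma protein genes and 0.28 for the members to 0.75 for proximal tubule and 1.54 for skeletal muscle, and the lowest for embryonic kidney markers (-0.08, a place it loses under median centring).

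The genes most like *Afp* in null over WT were found by Pearson correlation over the 6 replicates among 419 genes whose values spanned at least 1 on the log2 scale. They were the muscle genes *Myh3* (r = 1.000), *Acta1* (0.999) and *Tnnc2* (0.995), and *Aadat* (0.999), *Tinag* (0.998), *Slc22a6* (0.996), *Klk1b24* (0.995) and *Spink1* (0.994). *Slc22a6* encodes an organic anion transporter and *Aadat* an aminotransferase. The 6 points of each correlation share arrays and slides, and their shape is that of slide 3 against the rest, so many genes reach such values. Slide means were 0.14, 0.41 and 2.92 for *Myh3*, -0.22, -0.06 and 1.46 for *Aadat*, and -1.15, -0.83 and 1.33 for *Klk1b24*, whose value on slides 1 and 2 was thus unlike that of *Afp* in level.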

How the data were processed

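Transcript levels in null and WT kidneys were measured on 12 two-colour Agilent arrays. The authors deposited median spot and background intensity per dye, with no normalization, per the file headers. The same deposited files hold processed intensity values and a log10 ratio of Cy5 over Cy3 made by Agilent's Feature Extraction software, version 10.5.1.1 in the file headers and 6.1 in the submitters' processing notes, with detection flags. The authors' value table holds log10 ratios: turned to null over WT, the scanner's ratios correlated with its columns at 0.998 to 0.999 with slopes of 1. Which rule left entries of it blank is unknown. Its column medians were 0.00645, 0.000114, 0.00146, -0.00174, -0.00315 and -0.00332 on null/WT and -0.000769, -0.000946, -0.00257, -0.0044, -0.01 and -0.0218 on WT/null arrays.

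Background was corrected with normexp (offset 50), ratios were normalized by loess within arrays, and channel levels additionally by Aquantile between arrays. Control spots and 101 to 262 outlier spots per array were left out, spots of a probe and then the 2 arrays of a replicate were averaged. A probe was detected where at least 50% of its spots were well above background, and tested if detected in null or in WT on at least 6 of 12 arrays (22977 of 41174). Gene names came from probe accessions matched to RefSeq (GRCm38.p6), which named 25097 probes. The brightest tested probe stands for a gene. limma 3.58.1 in R 4.3.3 fitted genotype with dye, Benjamini-Hochberg at 0.05 over all tested probes. The median SE was 0.0506, and the number of arrays limits the precision. A second fit with replicate number gave the F. Both were tested on simulated data.

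After removal of each orientation's mean, replicates sharing a number correlated at 0.587, 0.517 and 0.413, so the numbers were taken to pair the samples. Each number is also a slide, and a shared slide and shared RNA cannot be told apart. The members, lists, tests and the rule for named genes were chosen with earlier results of these data known, the slide 3 value of *Afp* included, so its F is no independent evidence. The rule names every member, the 4 other plasma protein genes with the smallest p in each direction and any past a threshold, the largest average of each marker list, and the 8 genes most like *Afp*. Other genes named were chosen after their values were seen, and a few genes of the lists are counted but not reported by name here. For the *Alb*, *Afp* and fibrinogen promoters, RefSeq's table was used.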

Additional observations from a re-analysis of the deposited data

Results flagged for a closer look

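*Afp* is given here because its null over WT differed between the replicate numbers by a test of that difference (limma F adjusted p = 0.00227). *Ahsg* is given because WT/null replicate 3 lay far from the other replicates, at -0.54 with the nearest value at -0.04. *Ambp* is given because null/WT replicate 3 lay far from the others, at 0.63 with the nearest value at 0.10. Of 15 groups of 6 values searched for such distant samples (ratio and both channel levels of the 5 tested genes) 2 were found, and chance gives about 1 in 20. The *Ahsg* value comes from the array that stood apart, while both arrays of the *Ambp* replicate gave it.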

How the results depend on the processing

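No member passed in null over WT under any of the 18 alternatives, and none of the other plasma protein genes did. The count over all probes, 9, became 4 with the replicate block and 15 when the array that stood apart was left out. It ranged from 3 to 62 when replicates or replicate numbers were left out, with 5 without null/WT replicate 2, 3 without slide 2 and 62 without slide 3. The median of the tested members, 0.12, ranged from -0.01 (without slide 3) to 0.16 in those fits, and *Afp* from -0.01 to 0.75. Of the values of single members, 87 kept their sign and their side of the threshold and 3 changed sign: *Afp* to -0.01 and *Ambp* to -0.10 without slide 3, and *Ambp* to -0.06 without null/WT replicate 3. The pairing by replicate number changed no other call. Median centring in place of loess moved the median of all probes to 0.14, and under it 4 of 5 members and 11447 of all probes passed the F between slides, against 341 of all probes before, 1548 without the array that stood apart and 132 in the authors' value table (the cause was not tested). Scaling alternatives for the lists were chosen after seeing the data. Under the other 7 alternatives that allow the F, *Afp* was the 1 member to pass (adjusted p from 0.000168 to 0.0342). Dim probes limit *Alb* and *Ahsg*, which lie close to background.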

Other observations

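Complement genes were read among the other plasma protein genes. The log2 null over WT on slides 1, 2 and 3 was 0, -0.15 and 0.40 for *C3* and -0.14, -0.04 and 0.44 for the factor I gene *Cfi*. The limma F adjusted p was 0.0586 and 0.0553, so these did not pass, but without the array that stood apart it was 0.0139 and 0.0109. *C4b* ran the other way, at 0.04, -0.01 and -0.26, and did not pass (limma F adjusted p = 0.228, and 0.744 without that array).

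The albumin family has further members beside *Alb* and *Afp*. *Afm*, the afamin gene, was detected in all 24 channels, with mean log2 levels of 8.70, 9.64 and 9.38 in null and 8.80, 9.69 and 9.0 in WT kidneys on slides 1, 2 and 3. *Gc*, which encodes the vitamin D-binding protein, was also detected in every channel, with 8.40, 8.55 and 8.63 in null and 8.36, 8.61 and 8.31 in WT. Neither passed in null over WT (limma unadjusted p = 0.384 and 0.172). These genes were singled out after their values were seen.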
